A study of Mus musculus with 12 samples.

Results

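The 9 effector cytokine genes Ifng, Tnf, Il2, Csf2, Il10, Il21, Tgfb1, Lta and Ltb were followed, by gene symbol, among the 32285 genes of 6 single-cell RNA libraries of CD8 T cells from non-obese diabetic (NOD) mice. The libraries formed 3 groups of 2. Islet IGRP+ and spleen IGRP+ cells were CD8 T cells that bound a Kd tetramer carrying NRP-V7, a mimotope of the beta-cell autoantigen IGRP, and islet IGRP- cells were CD8 T cells from islets that did not bind it. All mice were NOD/ShiLtJ females, prediabetic and 10 to 15 weeks old. Each of 2 independent experiments (Round 1 and Round 2) pooled the islets and the spleens of 10 mice, so that a round gave 1 library of each group and the variation between mice was averaged within a library. A tetramer loaded with a mimotope selects cells by binding, and IGRP+ cells therefore stand for tetramer-binding cells rather than for every CD8 T cell with this specificity. After the filter on mitochondrial RNA and genes per cell, 24117 of 26818 cells remained, between 1204 and 8932 in a library.

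Interferon-gamma (Ifng) and tumor necrosis factor (Tnf) are the inflammatory cytokines by which cytotoxic T cells act on neighbouring cells, and beta cells carry receptors for both. Lymphotoxin alpha (Lta) and lymphotoxin beta (Ltb) belong to the TNF family and together form a membrane-bound ligand of the lymphotoxin beta receptor. Interleukin 2 (Il2) and interleukin 21 (Il21) signal through receptors that share the common gamma chain, GM-CSF (Csf2) acts on myeloid cells, and interleukin 10 (Il10) and transforming growth factor beta 1 (Tgfb1) are regulatory. Ifng, Tnf and Il2 RNA are made within hours of T cell receptor signaling and are short lived, whereas TGF-beta 1 protein is stored in a latent form that integrins release.

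Upstream sequences of Ifng, Tnf, Ltb and Tgfb1 are shown because these 4 differed between tissues in every setting tried, 3 of them in one direction and the fourth in the other. The stretches below lie directly before the start site of each gene and come from RefSeq on GRCm38.p6, which held 8 of the 9 genes. They are read from 5′ to 3′ on the gene's strand, and the Ltb stretch ends where the GENCODE vM21 gene begins. Capitals mark the NFAT core GGAAA, the AP-1 motif TGANTCA, the T-box core AGGTGT and the GC box GGGCGG, each on either strand, and the TATA box TATAAA on the gene's strand.
Ifng promoter, chr10:118440796-118441045, plus strand: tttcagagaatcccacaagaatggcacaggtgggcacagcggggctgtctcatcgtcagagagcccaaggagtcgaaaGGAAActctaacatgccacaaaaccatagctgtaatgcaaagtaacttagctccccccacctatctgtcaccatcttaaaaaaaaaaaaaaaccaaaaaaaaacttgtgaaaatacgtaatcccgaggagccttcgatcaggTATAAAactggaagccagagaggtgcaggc
Tnf promoter, chr17:35202008-35202257, minus strand: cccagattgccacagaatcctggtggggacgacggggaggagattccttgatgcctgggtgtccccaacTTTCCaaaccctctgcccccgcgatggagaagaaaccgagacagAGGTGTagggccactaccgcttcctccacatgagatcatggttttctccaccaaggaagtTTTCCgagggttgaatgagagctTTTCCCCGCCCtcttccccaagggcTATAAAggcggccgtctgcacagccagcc
Ltb promoter, chr17:35194257-35194438, plus strand: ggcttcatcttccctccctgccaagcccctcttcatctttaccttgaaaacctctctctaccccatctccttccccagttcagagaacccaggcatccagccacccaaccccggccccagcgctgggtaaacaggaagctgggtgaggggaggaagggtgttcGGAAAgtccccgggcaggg
Tgfb1 promoter, chr7:25686752-25687001, plus strand: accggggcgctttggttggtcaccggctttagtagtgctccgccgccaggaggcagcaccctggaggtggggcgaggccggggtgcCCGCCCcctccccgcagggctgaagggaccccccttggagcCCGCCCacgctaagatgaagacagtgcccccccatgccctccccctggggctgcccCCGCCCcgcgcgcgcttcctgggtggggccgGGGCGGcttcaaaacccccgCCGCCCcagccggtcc
Ifng and Tnf each held a TATA box, 30 and 29 bases before the start site, and 7.59% of 32851 promoters held one in the 250 bases before it. The NFAT core stood 1 time before Ifng, 3 times before Tnf and 1 time before Ltb, and 55.6% of promoters held it. Tgfb1 had neither, but had 5 GC boxes, a motif of 32.7% of promoters, and 21 CpG dinucleotides against a median of 6. In Tnf the NFAT core nearest the GC box ended at the base before it, so that both are capitals in 1 run. The T-box core was found before Tnf and, in bases not printed, before Ltb (11.8% of promoters), and the AP-1 motif in none of the 4 (6.75% of promoters). These are matches of letters in a window and say nothing of binding.

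Several of the mRNAs also carry known decay signals. AU-rich elements, runs of the pentamer ATTTA in the 3′ untranslated region, are binding sites of RNA-binding proteins that shorten the life of cytokine mRNAs. The stretches with the most pentamers, in capitals, were as follows in GENCODE vM21 transcripts on GRCm38.
Ifng mRNA, chr10:118445335-118445359, plus strand: ATTTAttaatATTTAaaactATTTA
Tnf mRNA, chr17:35199679-35199705, minus strand: ATTTAttATTTATTTAttATTTATTTA
Csf2 mRNA, chr11:54247329-54247349, minus strand: ATTTATTTATTTATTTATTTA
Il2 mRNA, chr3:37121040-37121067, minus strand: ATTTATTTAaatATTTAactttaATTTA
The 3′ untranslated region held 6 pentamers in Ifng, 8 in Tnf, 9 in Csf2 and 7 in Il2, against 1 in Tgfb1 and 0 in Ltb and a median of 1 over 20641 genes. Per kilobase, 98.7% of genes had fewer than Ifng and 99.0% fewer than Tnf, but 97.3% had fewer than Tgfb1, whose 3′ untranslated region has 135 bases. Ltb, Tnf and Lta lie within 10913 bases of each other on chromosome 17 (35194439 to 35205351). Ifng is on chromosome 10, Tgfb1 on chromosome 7, Il2 and Il21 on chromosome 3, Csf2 on chromosome 11 and Il10 on chromosome 1.

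The kept cells of a library held 5880696 to 40469961 unique molecular identifiers (UMIs), each standing for a captured RNA molecule, with a median of 2590 to 4216.5 UMIs per cell, lower in the spleen libraries than in the islet libraries. Between 99.6% and 99.9% of the cells of a library had a UMI of a CD8 T cell marker gene. Endocrine and exocrine RNA was found nearly only in the islet libraries, where endocrine markers summed to 5.44 to 137 CPM (a gene's UMIs scaled to a common library total) and exocrine markers to 63.3 to 486, against at most 6.51 CPM in the spleen for either list. Myeloid markers summed to 176 to 243 CPM in all 6 libraries, B cell markers to 61.5 to 127, NK cell markers to 53.9 and 59.0 in islet IGRP- and 151 to 212 in IGRP+ libraries, and CD4 T cell markers, Ctla4 included, to 259 to 477 in islet and 25.2 and 27.4 in spleen libraries. Most of the NK sum was Klre1 (mean 51.9 CPM in islet IGRP-, 159 in islet IGRP+ and 207 in spleen IGRP+), while Tyrobp stood at 4.51, 0.439 and 0.290. Most of the myeloid sum was Cst3 (mean 189 in islet IGRP+ and 181 in spleen IGRP+), while Cd74 stood at 23.9 and 1.56 and H2-Aa at 6.75 and 0.197. The part of these RNAs in the tissue differences was not tested. In Round 1, 238 islet IGRP- cells carried a paired receptor found among IGRP+ cells of both tissues, and in Round 2 this was true of 2. Any 2 libraries shared at most 64 cell barcodes and at most 1.03% of those of the smaller library. Only 9 kept cells had no UMI of the CD8 T cell markers and carried exocrine, myeloid or B cell markers. None of these had Ifng, Tnf, Il2, Csf2, Il10, Il21 or Lta, which with 9 cells allows a share of up to 33.3%, while 3 had Tgfb1 and 2 had Ltb, at a median of 971 UMIs.

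**Figure D1:**
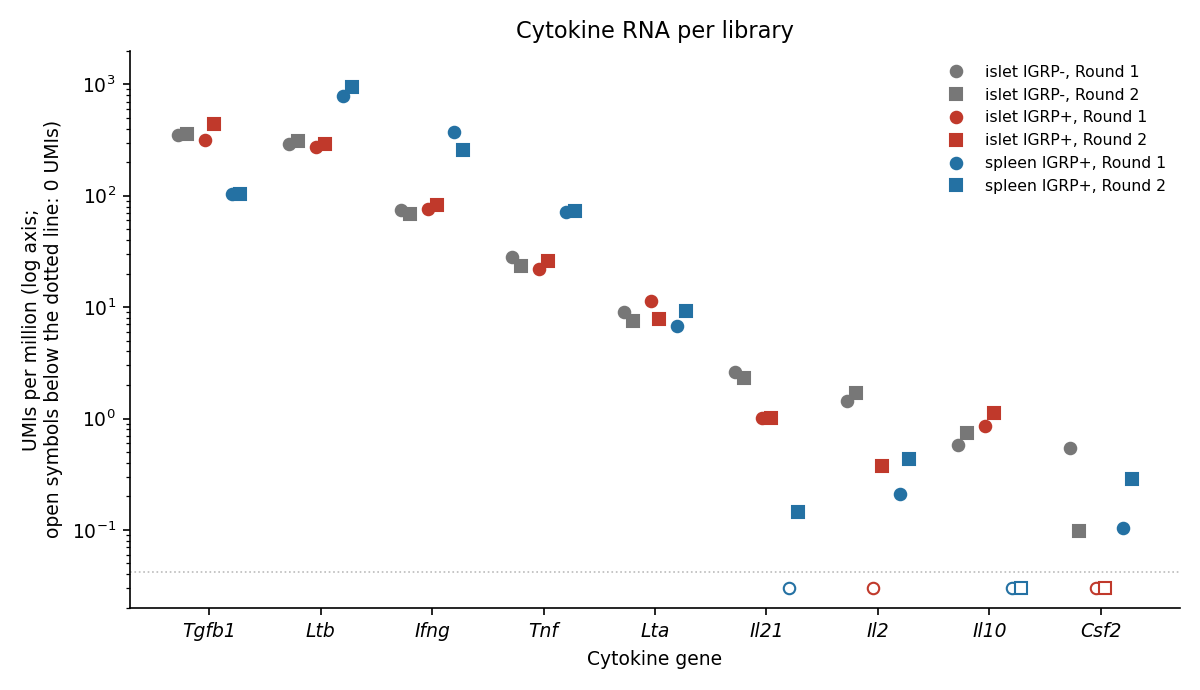
RNA of the 9 cytokine genes in CPM (log axis) in each of the 6 libraries; circles are Round 1, squares Round 2, and open symbols mark libraries with 0 UMIs. Ifng, Tnf and Ltb stood highest in both spleen IGRP+ libraries and Tgfb1 lowest there, while islet IGRP+ and islet IGRP- libraries lay close together for Ifng, Tnf and Ltb. Il2 and Il21 stood higher in both islet IGRP- libraries than in either islet IGRP+ library. Csf2 had 16 and 4 UMIs in islet IGRP-, 13 of them in a single cell, and 0 in islet IGRP+.

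Ifng was 3.78-fold lower in IGRP+ cells of the islets than in IGRP+ cells of the spleen. It made up 74.1 and 67.8 CPM in islet IGRP- (Rounds 1 and 2), 76.7 and 82.6 in islet IGRP+, and 372.3 and 257.0 in spleen IGRP+. The spleen libraries lay above every islet library, and the 4 islet libraries lay between 67.8 and 82.6. The log2 difference of islet minus spleen was -1.92 ± 0.29 (SE; edgeR adjusted p = 0.00863), and that of islet IGRP+ minus islet IGRP- was 0.16 ± 0.28 (edgeR adjusted p = 0.806).

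Tnf moved with Ifng between tissues. Its level was 28.0 and 23.3 CPM in islet IGRP-, 21.9 and 25.9 in islet IGRP+, and 71.5 and 73.0 in spleen IGRP+. Both spleen libraries exceeded all islet libraries, by 2.84-fold for the IGRP+ cells (log2 difference -1.51 ± 0.19, edgeR adjusted p = 0.00551), and the islet groups overlapped (-0.11 ± 0.19, edgeR adjusted p = 0.791).

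Ltb, made by resting and memory lymphocytes, was also lower in the islets. It reached 290.1 and 309.8 CPM in islet IGRP-, 274.5 and 290.8 in islet IGRP+, and 782.6 and 946.8 in spleen IGRP+, a 2.85-fold difference for the IGRP+ cells (log2 -1.51 ± 0.18, edgeR adjusted p = 0.00458). The neighbouring gene Lta did not follow. Its values of 9.0 and 7.4 in islet IGRP-, 11.4 and 7.9 in islet IGRP+, and 6.8 and 9.3 in spleen IGRP+ overlapped between all groups (tissue difference 0.39 ± 0.32, edgeR adjusted p = 0.409; tetramer difference 0.23 ± 0.31, adjusted p = 0.730).

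Tgfb1 ran the opposite way and was 3.85-fold higher in the islets. Its level was 352.7 and 355.2 CPM in islet IGRP-, 315.3 and 440.7 in islet IGRP+, and 103.4 and 103.5 in spleen IGRP+. Every islet library was above both spleen libraries (log2 difference 1.94 ± 0.19, edgeR adjusted p = 0.00307). The islet IGRP+ libraries lay on either side of the islet IGRP- libraries (0.08 ± 0.18, edgeR adjusted p = 0.863).

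Il2 and Il21 were rare everywhere and were mostly found in islet IGRP- cells. Il2 had 42 and 69 UMIs in islet IGRP-, 0 and 3 in islet IGRP+, and 2 and 3 in spleen IGRP+, and the share of cells with a UMI was 0.467% and 0.470% in islet IGRP- libraries. In islet IGRP- cells Il2 thus stood at 1.59 CPM against 0.216 in islet IGRP+ cells, a ratio of 7.37 with an exact 95% interval of 2.46 to 36.3 that covers counting error only. All 3 UMIs of the islet IGRP+ cells were in Round 2, and the log2 difference was -2.15 without islet IGRP+ Round 1 and -7.88 without Round 2, the latter against a library with 0 UMIs and thus dependent on the fit. Across all libraries the log2 difference of islet IGRP+ minus islet IGRP- was -2.89 ± 0.77 (edgeR adjusted p = 0.156), and with the round as a paired replicate block it passed the threshold (-2.88 ± 0.66, edgeR adjusted p = 0.00592).

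Il21 had 77 and 94 UMIs in islet IGRP-, 6 and 8 in islet IGRP+, and 0 and 1 in spleen IGRP+. The 3 groups did not overlap in CPM. The ratio of islet IGRP- to islet IGRP+ was 2.43 (1.41 to 4.54), with a log2 difference of -1.31 ± 0.49 that missed the threshold (edgeR adjusted p = 0.254) and passed it with the paired replicate block (-1.29 ± 0.41, adjusted p = 0.0307). For islet IGRP+ over spleen IGRP+ the ratio was 16.7 (2.54 to 705). This tissue difference was called (edgeR adjusted p = 0.0239), on 14 UMIs against 1, and the call was lost on leaving out any 1 of the 6 libraries (adjusted p = 0.0516 to 0.0978).

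Il10 and Csf2 had too few UMIs for the test. Il10 had 17 and 30 UMIs in islet IGRP-, 5 and 9 in islet IGRP+ and none in the 5954 spleen cells. Its level in islet IGRP+ cells, 1.01 CPM, was at least 5.56-fold higher than in spleen IGRP+ cells when 3 UMIs over both spleen libraries are taken as the limit, while the exact 95% lower limit of the ratio was 3.95. Csf2 had 16 and 4 UMIs in islet IGRP-, none in islet IGRP+, which allows up to 0.249% and 0.188% of cells with a UMI and sets no limit on cells with less RNA than was captured, and 1 and 2 in spleen IGRP+; 13 of the 16 UMIs in islet IGRP- Round 1 came from a single cell.

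Most cells with Il2, Il21 or Il10 carried CD8 transcripts, and few carried markers of CD4 T cells. Of 117 islet IGRP- cells with Il21, 115 had Cd8a or Cd8b1 and 2 had Cd4, Foxp3 or Cd40lg, a share of 1.71% (exact 95% interval 0.208 to 6.04%) against 0.586% of all islet IGRP- cells. Of 72 with Il2, 63 (87.5%) had Cd8a or Cd8b1, near the 86.9% of all islet IGRP- cells, and 1 had a CD4 marker. All 14 islet IGRP+ cells with Il10 had Cd8a or Cd8b1, as did 93.4% of all islet IGRP+ cells. Of the 7 islet IGRP- cells with Csf2, 6 had Cd8a or Cd8b1 and 2 had a CD4 marker.

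Counted over the 7 genes that could be tested, none was called between islet IGRP+ and islet IGRP- cells (edgeR adjusted p under 0.05), where 0.151% of 11277 genes were called higher and 1.04% lower. An unadjusted p under 0.05 was reached by 2 of the 7, Il2 and Il21, and by 1982 of the 11277 genes, and DESeq2 called none of the 7. With the paired replicate block these 2 were called lower, where 14.4% of genes were called higher and 16.1% lower. Between tissues 2 of the 7 were higher and 3 lower in islet IGRP+ cells, where 13.7% of genes were called higher and 12.9% lower (with the block, 28% and 27.1%). The median log2 difference of the 7 was -0.47, beside -0.03 over all genes tested. Both comparisons used the islet IGRP+ libraries. Islets were digested with collagenase and kept at 37 ºC after dissociation whereas spleens were broken up mechanically and enriched by negative selection, and the study describes the sequenced spleen cells, but not the islet cells, as sorted on CD44+. Tissue, handling and this gate cannot be told apart. In each library the level of a gene mixes how many cells made it and how much each made.

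**Figure D2:**
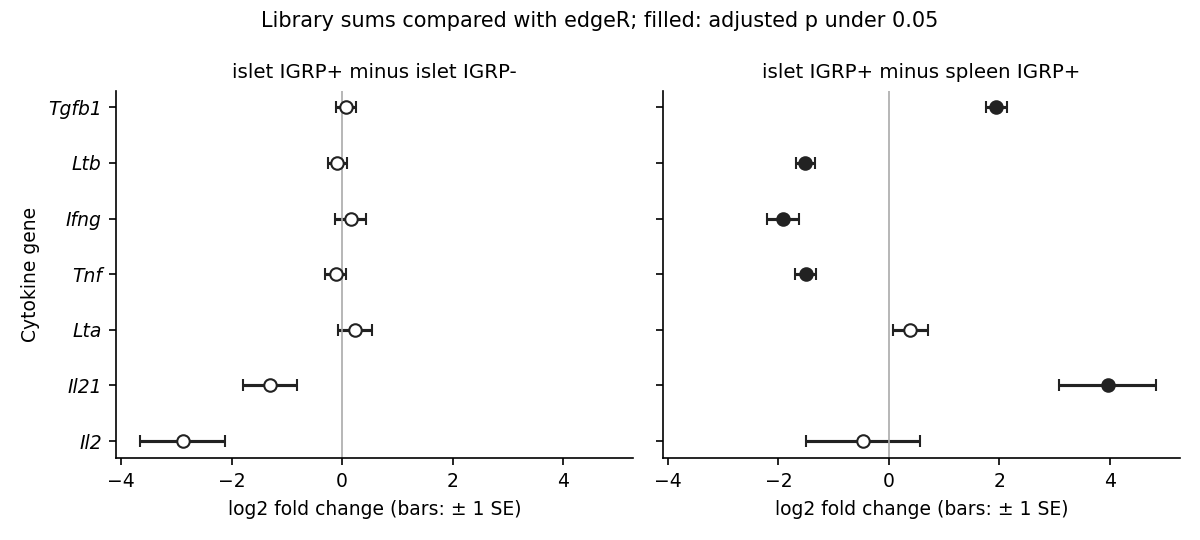
Log2 differences (points) with their standard errors (bars) for the 7 cytokine genes tested, islet IGRP+ minus islet IGRP- on the left and islet IGRP+ minus spleen IGRP+ on the right; filled points passed an edgeR adjusted p of 0.05. No point is filled on the left, and Tgfb1 and Il21 lie to the right of 0 and Ltb, Ifng and Tnf to the left among the filled points on the right.

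The share of cells with the RNA and the UMIs per positive cell were read at an equal depth of 1000 UMIs per cell. Less RNA per cell also lowers the share, and a positive cell holds at least 1 UMI, so that these measures cannot separate fewer cells from less RNA per cell. Ifng was found in 5.73% and 5.30% of islet IGRP- cells, 6.01% and 7.72% of islet IGRP+ cells, and 28.5% and 20.8% of spleen IGRP+ cells. The mean share in the spleen was thus 3.59-fold that in islet IGRP+ cells. A positive cell held 1.35 and 1.30, 1.39 and 1.26, and 1.43 and 1.34 Ifng UMIs at that depth, values that overlapped between the groups. Without thinning, 16.9% and 15.6% of islet IGRP-, 18.5% and 23.5% of islet IGRP+, and 49.0% and 39.2% of spleen IGRP+ cells had an Ifng UMI.

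Tnf and Ltb showed the same kind of difference. Tnf was found at 1000 UMIs in 2.54% and 2.36% of islet IGRP-, 2.64% and 2.97% of islet IGRP+, and 6.69% and 6.70% of spleen IGRP+ cells, with 1.10 to 1.15 UMIs per positive cell in all 6 libraries. For Ltb the shares were 22.4% and 23.7%, 22.9% and 23.0%, and 49.2% and 55.8%, and here the UMIs per positive cell also stood higher in the spleen, at 1.56 and 1.69 against 1.25 to 1.29 in the islet libraries.

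Tgfb1 was found in 24.3% and 23.8% of islet IGRP- cells, 27.9% and 33.1% of islet IGRP+ cells, and only 9.94% and 10.2% of spleen IGRP+ cells at that depth. A positive cell had 1.36 to 1.49 UMIs in the islet libraries and 1.07 and 1.06 in the spleen libraries. Before thinning, 5 or more Tgfb1 UMIs were seen in 7.31% and 15.0% of islet IGRP+ cells and in 0.0284% and 0% of spleen IGRP+ cells.

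**Figure D3:**
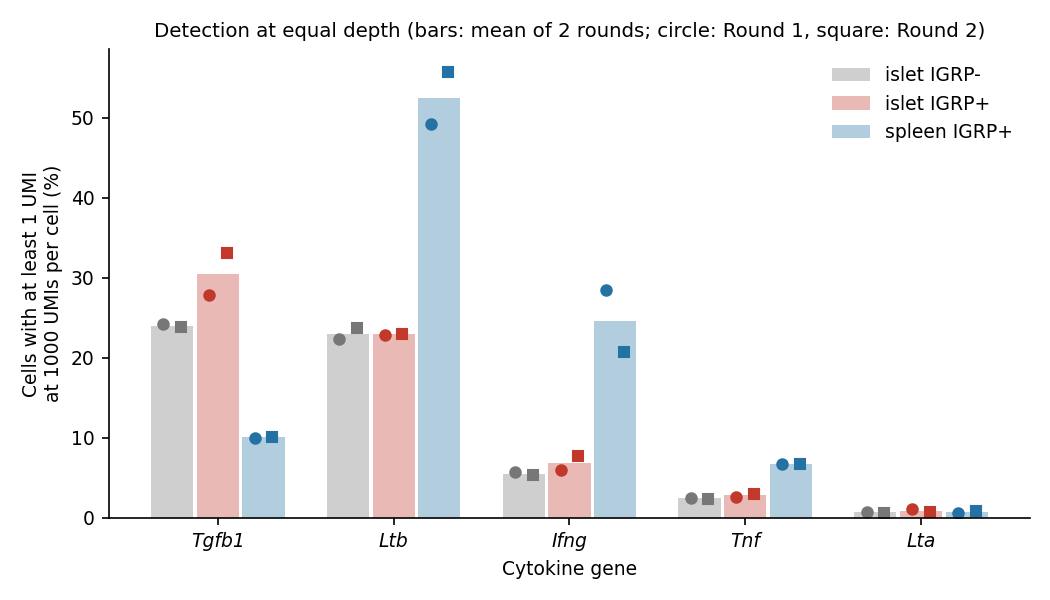
Share of cells with at least 1 UMI when every cell is thinned to 1000 UMIs, for 5 cytokine genes; bars are means of 2 rounds and points single libraries. Ifng, Tnf and Ltb were found in larger shares of spleen IGRP+ cells (20.8% to 28.5% for Ifng), and Tgfb1 in larger shares of islet cells (23.8% to 33.1%).

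A larger part of the Ifng UMIs lay in the top cells of the islet libraries than of the spleen libraries. The 1% of cells with the most Ifng UMIs held 28.8% and 26.4% of all Ifng UMIs in islet IGRP- and 31.3% and 18.5% in islet IGRP+, against 8.64% and 9.24% in spleen IGRP+. The most Ifng UMIs in a cell were 51 and 26 in islet IGRP-, 28 and 13 in islet IGRP+, and 13 and 9 in spleen IGRP+. The ratio of variance to mean over cells was 5.51 and 3.75 in islet IGRP-, 5.81 and 2.73 in islet IGRP+, and 2.22 and 2.04 in spleen IGRP+. The islet cells were deeper, and these ratios and shares were not thinned. Ifng was also found in a smaller share of islet than of spleen cells, which by itself raises the part held by the top 1%. Tnf had 32.6% and 27.4% of its UMIs in the top 1% of islet IGRP- cells and 18.2% and 16.9% in spleen IGRP+.

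Clone by clone, the tissue differences of Ifng, Ltb and Tgfb1 had 1 direction. In Round 1, 14 paired receptors had at least 10 cells in both IGRP+ libraries, and in Round 2, 19. Ifng was higher in the spleen cells than in the islet cells of the same clone in 14 of 14 and 19 of 19 clones, with medians of 63.1 and 454 CPM (islet and spleen) in Round 1 and 72.1 and 281 in Round 2. Ltb was higher in the spleen in 14 of 14 and 19 of 19, and Tgfb1 higher in the islets in 14 of 14 and 19 of 19, with medians of 268 and 97.2 in Round 1 and 382 and 89.9 in Round 2. Tnf was higher in the spleen in 13 of 14 and 17 of 19, and Lta in 6 of 14 and 8 of 19.

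Cells of 1 clone and 1 tissue come from 1 library, so these clones are not independent replicates. When the library sums were made from clones present in both tissues alone, the log2 differences between islet and spleen IGRP+ cells were -2.12 for Ifng, -1.57 for Tnf, -1.47 for Ltb and 1.79 for Tgfb1, and all 4 passed the test (edgeR adjusted p at most 0.0178; 8.65% of genes were called higher and 7.63% lower in that fit). These 4 genes were called in the same direction in all 17 alternative settings, with an edgeR adjusted p of at most 0.0432.

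**Figure D4:**
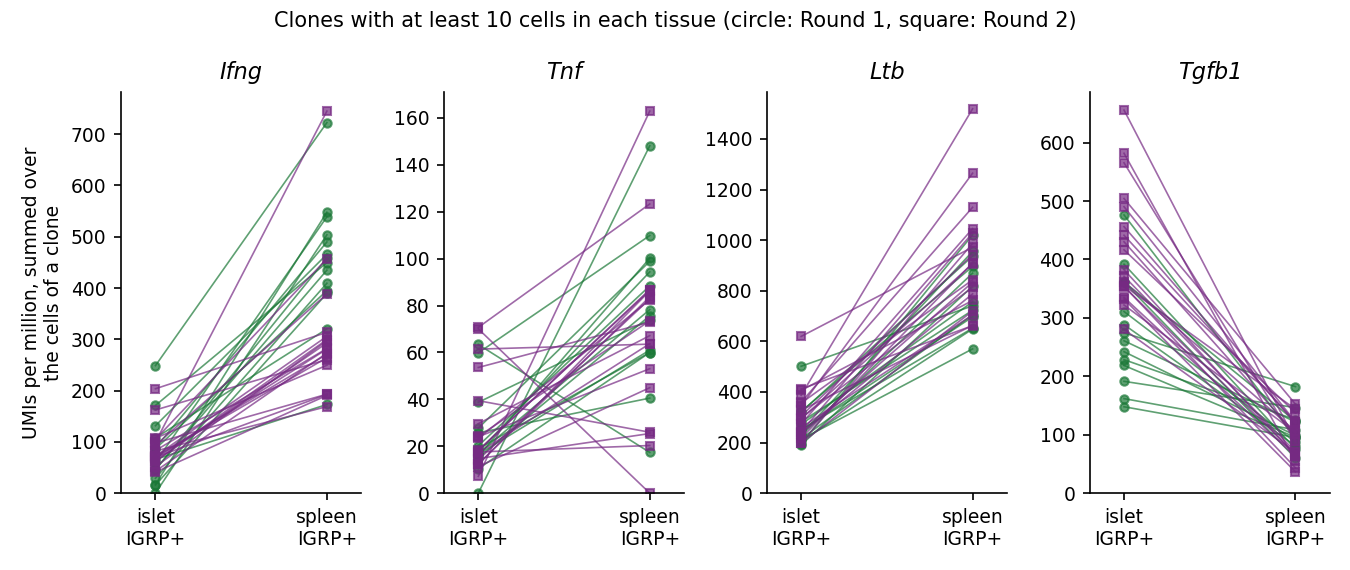
Ifng, Tnf, Ltb and Tgfb1 in CPM, summed over the cells of a clone, for the 14 clones of Round 1 (circles) and 19 of Round 2 (squares) with at least 10 cells in both tissues; a line joins the islet and spleen cells of a clone. All lines rise toward the spleen for Ifng and Ltb and fall for Tgfb1, while 3 Tnf lines fall.

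Cytokine RNA also differed between expanded clones (a paired receptor in 2 or more cells of a library) and receptors seen in a single cell. In islet IGRP- libraries Ifng stood at 109 and 97.0 CPM in expanded clones and at 39.4 and 35.1 in receptors seen in 1 cell. In spleen IGRP+ libraries the values were 472 and 291 against 54.2 and 48.5. The spleen cells with a receptor seen in 1 cell thus lay below the 67.8 to 82.6 of the islet libraries as a whole, which also hold expanded cells. They lay above the 39.4 and 35.1 of islet IGRP- cells with a receptor seen in 1 cell.

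Tgfb1 followed in the islet IGRP- libraries, with 481 and 526 against 191 and 179, as did Il21, with 4.83 and 5.09 against 1.15 and 0.328. Ltb did not separate expanded from unexpanded cells there to the same extent (323 and 338 against 293 and 294), and in the spleen it was lower in the expanded cells (772 and 931 against 905 and 1133). Il2 was lower in the expanded cells of the islet IGRP- libraries, at 0.460 and 1.33 against 2.46 and 1.72, on 4 to 21 UMIs per value. Receptors seen in 1 cell made up 12 and 14 cells of the islet IGRP+ libraries, too few for a value. Expanded islet IGRP+ cells had 83.9 and 80.1 CPM of Ifng, 281 and 418 of Tgfb1 and 284 and 292 of Ltb. These values lay below those of expanded islet IGRP- cells in both rounds. Tnf did too, at 23.3 and 24.4 against 36.1 and 29.1. Il2, Il21 and Csf2 were also lower, on few UMIs in islet IGRP+ cells and, for Csf2, on 3 and 2 UMIs in islet IGRP- cells. Lta and Il10 were higher in Round 1 and lower in Round 2. The difference between expanded cells of the islet groups was not tested. In Round 1, 238 of 2992 islet IGRP- cells with a paired receptor carried one found among IGRP+ cells of both tissues. Those cells had 168 CPM of Ifng, 53.4 of Tnf, 579 of Tgfb1 and 282 of Ltb. Their part in the difference was not tested.

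The receptors of these cytokines were read from a list of 17 genes, of which 15 could be tested. Between islet IGRP+ and islet IGRP- cells 2 were lower and none higher (with the paired replicate block 7 and 2). For this and the later lists, the shares over all genes within the islets were 1.04% lower and 0.151% higher. With the block they were 16.1% and 14.4%. Between tissues they were 12.9% lower and 13.7% higher, and with the block 27.1% and 28%. Ifngr2, the signaling chain of the interferon-gamma receptor, had 1234 and 2032 UMIs in islet IGRP-, 3 and 3 in islet IGRP+, and 35 and 20 in spleen IGRP+. In CPM this was 42.3 and 50.2, 0.510 and 0.376, and 3.64 and 2.90. The log2 difference was -6.73 ± 0.34 within the islets (edgeR adjusted p = 0.00647) and -2.84 ± 0.39 between IGRP+ cells of the tissues (adjusted p = 0.00637). Tgfbr2, a TGF-beta receptor chain, was the other gene called within the islets, at -1.28 ± 0.16 (edgeR adjusted p = 0.0331). This call was lost without any 1 of the 6 libraries, with log2 differences of -1.36 to -1.19 over the 16 alternative settings. The Ifngr2 call within the islets was lost without either islet IGRP+ library (-7.03 and -6.36, edgeR adjusted p = 0.0532 and 0.0689).

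Ifngr2 also moved with clonal expansion and with Ifng itself. In islet IGRP- libraries it stood at 2.30 and 1.72 CPM in expanded clones and at 74.8 and 95.7 in receptors seen in 1 cell. At 1000 UMIs, 0.486% and 0.456% of islet IGRP- cells with Ifng had Ifngr2, against 5.08% and 5.80% of those without. Among cells with a paired receptor, 661 of 673 and 1177 of 1191 islet IGRP+ cells were expanded, against 1603 of 2992 and 2524 of 5483 islet IGRP- cells, and the part of this in the Ifngr2 difference was not tested.

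Between tissues 6 of the 15 receptor genes were higher and 3 lower in islet IGRP+ cells (8 and 5 with the block). The shares over all genes were 13.7% and 12.9%. Tnfrsf1b, the TNF receptor of activated lymphocytes, was higher by 2.36 ± 0.24 on the log2 scale, at 117 and 181 CPM against 23.5 and 38.7. Il2ra, the high-affinity IL-2 receptor chain, was higher by 2.23 ± 0.45, Il21r by 2.09 ± 0.24, Ifngr1, the ligand-binding chain for interferon-gamma, by 1.50 ± 0.25, Il2rb by 1.20 ± 0.18 and Tnfrsf1a by 0.75 ± 0.21. Beside Ifngr2, Tgfbr2 (-0.95 ± 0.16) and Il10rb (-0.93 ± 0.15) were lower. All 9 had an edgeR adjusted p of 0.0478 or less. Il2ra and Tgfbr2 passed in 3 of the 6 fits that left out 1 library, and Tnfrsf1a in 1. Without spleen IGRP+ Round 1 the list had 2 higher and 1 lower, and without Round 2, 3 and 1.

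Of 17 tested genes that answer to interferon-gamma, 3 were called lower and none higher in islet IGRP+ than in islet IGRP- cells, where Ifng RNA itself passed no test, with a median of -0.98 (12 lower and 2 higher with the paired replicate block). Irf1, a transcription factor, fell from 271 and 345 to 112 and 155 CPM (-1.22 ± 0.18, edgeR adjusted p = 0.0445). Socs1, a feedback inhibitor of cytokine receptors, fell from 117 and 145 to 44.7 and 67.8 (-1.23 ± 0.18, edgeR adjusted p = 0.0445). Iigp1, an interferon-induced GTPase, fell from 9.91 and 12.7 to 0.170 and 0.501 (-4.98 ± 0.41, edgeR adjusted p = 0.0150). The calls of Irf1 and Socs1 were lost on leaving out any library of the 6, and that of Iigp1 on leaving out any islet library. Over the 16 alternative settings the log2 differences were -1.42 to -1.10 for Irf1, -1.42 to -1.06 for Socs1 and -5.87 to -4.58 for Iigp1. Between tissues 1 of the 17 was higher (Irf8, 1.90 ± 0.22) and 3 lower (Iigp1, Irf1 and Gbp7) in islet IGRP+ cells, 2 and 6 with the block. The shares over all genes were 13.7% and 12.9%.

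Of 22 transcription factors of cytokine genes, 8 were higher and 3 lower in islet IGRP+ than in spleen IGRP+ cells. The shares over all genes were 13.7% and 12.9%, and the block gave 11 and 5 of the 22. Without spleen IGRP+ Round 1 the counts were 4 and 1, without spleen IGRP+ Round 2 they were 2 and 2, without islet IGRP+ Round 1 they were 6 and 1, and without islet IGRP+ Round 2 they were 5 and 3. Within the islets none was called without the block, and 6 were higher and 6 lower with it. The largest differences were Fosl2 (3.71 ± 0.34), Batf (1.60 ± 0.26) and Maf (1.49 ± 0.28), which were higher in the islets, and Jun (-1.98 ± 0.28), Fos (-1.30 ± 0.25) and Nfatc2 (-1.23 ± 0.26), which were lower (edgeR adjusted p at most 0.0217). Of these, Maf and Nfatc2 passed in 3 of the 6 fits that left out 1 library, Fos in 4 and Batf in 5. Tbx21 and Eomes were picked after their values were seen. Tbx21, which encodes T-bet and drives Ifng, was 73.8 CPM in islet IGRP+ and 103 in spleen IGRP+ (-0.39 ± 0.42), and Eomes 182 and 232 (-0.25 ± 0.19), and neither passed the test.

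Among 11 tested RNA-binding proteins that act on AU-rich elements or other parts of cytokine mRNAs, 2 were higher and 2 lower in islet IGRP+ than in spleen IGRP+ cells. These counts lay near the shares over all genes, 13.7% and 12.9%. Zfp36, which binds the ATTTA runs shown for Tnf and Ifng, was lower (-0.87 ± 0.22, edgeR adjusted p = 0.0368), as was Pdcd4, a translation inhibitor (-0.81 ± 0.18, edgeR adjusted p = 0.0226). Zc3h12d, an endoribonuclease of the regnase family, was higher (1.33 ± 0.16, edgeR adjusted p = 0.00494), and so was Elavl1, which encodes the stabilising protein HuR (0.57 ± 0.15, edgeR adjusted p = 0.0357). The calls of Zfp36 and Pdcd4 held in 1 of the 6 fits that left out 1 library, and that of Elavl1 in 0. None was called within the islets (3 lower with the paired replicate block).

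Of 11 NF-kappaB target genes, 6 were higher and 1 lower in islet IGRP+ than in spleen IGRP+ cells, with a median of 1.03. The shares over all genes were 13.7% and 12.9%, and the block gave 8 and 2 of the 11. Without spleen IGRP+ Round 1 the count higher was 2, and without spleen IGRP+ Round 2 it was 4. Cd83 (3.29 ± 0.39), Nfkb2 (2.21 ± 0.37) and Bcl3 (1.65 ± 0.23) differed most. Nfkbiz, an atypical I-kappaB protein, was lower (-1.43 ± 0.23) and was also lower than in islet IGRP- cells (-1.63 ± 0.23, edgeR adjusted p = 0.0426). The call within the islets was lost without any 1 of the 6 libraries, with log2 differences of -1.72 to -1.52 over the 16 alternative settings. Of 9 genes listed for T cell activation, 6 were higher and 1 lower, where 13.7% and 12.9% of all genes were. Tnfrsf4 (6.25 ± 0.23), Tnfrsf9 (5.29 ± 0.29) and Nr4a3 (3.52 ± 0.41) were higher and Cd69 lower (-1.90 ± 0.23, edgeR adjusted p at most 0.00494 for all). Egr1 (-0.47 ± 0.24) and Egr3 (-0.91 ± 1.30) were not called. Jun, Fos and Zfp36, counted in other lists, were lower.

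The genes that release TGF-beta from its latent form could be tested for 5 of 10. Itgb8 and Itgav, the chains of a TGF-beta activating integrin, were higher in islet IGRP+ than in spleen IGRP+ cells, together with Tgfb1. Itgb8 had 33 and 59 UMIs in islet IGRP+ and 0 and 2 in spleen IGRP+ (5.72 ± 0.74, edgeR adjusted p = 0.00558), and Itgav differed by 2.04 ± 0.20 (adjusted p = 0.00307). Nrros, which anchors latent TGF-beta, was lower (-2.77 ± 0.35, edgeR adjusted p = 0.00547). Within the islets none of the 5 was called (2 higher and 3 lower with the paired replicate block).

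Of 20 other cytokine genes, 5 had enough UMIs. Areg, which encodes the repair factor amphiregulin, was higher in islet IGRP+ cells, with 75 and 286 UMIs against 3 and 2 in spleen IGRP+ (6.33 ± 0.63, edgeR adjusted p = 0.00315). Il16 (-1.56 ± 0.18) and Osm (-2.21 ± 0.49) were lower (edgeR adjusted p = 0.00442 and 0.0237). Il17a, named after its values were seen, had 68 and 5 UMIs in islet IGRP- and none in the other 4 libraries.

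The coexpression of the cytokines was examined at 1000 UMIs per cell as the share of cells with both genes over the product of the single shares, a ratio of 1 meaning that the genes were found together as often as their shares predict. Of 36 pairs, 8 were frequent enough in islet IGRP-, 5 in islet IGRP+ and 7 in spleen IGRP+. Ifng and Tnf were found together 3.30 and 2.90 times as often as predicted in islet IGRP- cells, and 1.12 and 1.10 times in spleen IGRP+ cells. The ratio cannot exceed 1 over the larger share, so it has less room in the spleen, where Ifng was in 28.5% and 20.8% of cells. Both groups mixed expanded and unexpanded cells that differed in Ifng, and the part of this in the ratios was not tested. In unthinned cells, 32.4% and 31.9% of islet IGRP- cells with Tnf had Ifng, when 16.9% and 15.6% of all cells did, and 36.3% and 31.8% of islet IGRP+ cells with Tnf had Ifng. In the spleen 53.9% and 45.6% of cells with Tnf had Ifng, when 49.0% and 39.2% of all cells did.

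Ltb was found with Ifng and Tnf more often than predicted in the islets, and about as often as predicted in the spleen. For Ifng and Ltb the ratio was 1.37 and 1.39 in islet IGRP-, 1.54 and 1.48 in islet IGRP+, and 0.961 and 0.996 in spleen IGRP+. For Tnf and Ltb it was 1.43 and 1.36, 1.48 and 1.44, and 0.948 and 1.08. The spleen values were below both islet groups in each round for both pairs. Ltb was in 49.2% and 55.8% of spleen cells at that depth, so these ratios also have less room there. Expanded spleen cells had more Ifng and Tnf and less Ltb than those with a receptor seen in 1 cell. The part of this in the ratios was not tested.

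Tgfb1 was found independently of Ltb in all groups, with ratios of 0.952 to 1.06. With Ifng its ratio was 1.41 and 1.31 in islet IGRP-, 1.02 and 0.937 in islet IGRP+, and 1.10 and 1.13 in spleen IGRP+. Expanded islet IGRP- cells had more of both genes than those with a receptor seen in 1 cell. Nearly all islet IGRP+ cells with a paired receptor were expanded, and the part of this in the ratios was not tested. Lta and Ltb, whose products form 1 complex, had 1.57 and 1.59 in islet IGRP- and 1.28 and 1.13 in spleen IGRP+. Cells with at least 2 of Ifng, Tnf, Lta, Il2 and Csf2 made up 3.97% and 3.50% of islet IGRP-, 4.32% and 4.07% of islet IGRP+, and 8.77% and 7.90% of spleen IGRP+ cells, before thinning.

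**Figure D5:**
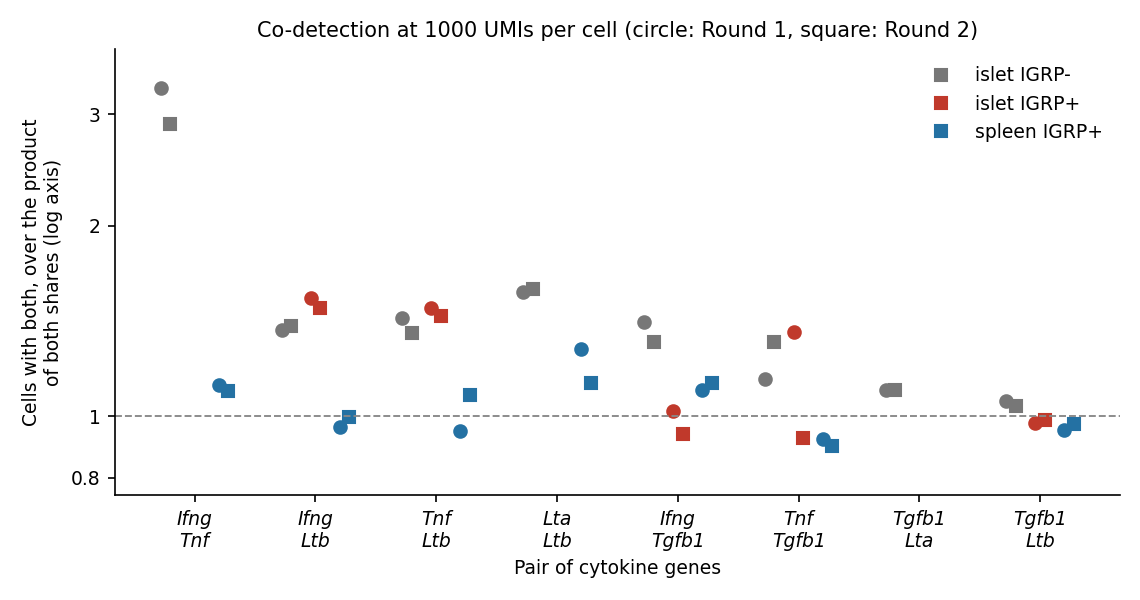
Share of cells with both genes of a pair over the product of both shares, at 1000 UMIs per cell (log axis), in the libraries where the product predicted at least 5 cells; the dashed line marks a ratio of 1. Ifng and Tnf stand at 3.30 and 2.90 in islet IGRP- and at 1.12 and 1.10 in spleen IGRP+, and the pairs of Ifng or Tnf with Ltb lie above 1 in the islets and near 1 in the spleen.

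Co-detection was also read with 28 genes of cell state, and the genes and groups named here follow no set rule. Ifng was frequent in cells with the chemokine gene Ccl3, at 22.9% and 21.7% against 5.37% and 5.10% in islet IGRP-. With Ccl4 the islet IGRP+ shares were 13.8% and 15.4% against 4.84% and 6.39%. In spleen IGRP+, Ccl4 was in 57.2% and 50.2% of cells with Ifng against 38.3% and 35.7% of those without. Gzmb, which encodes granzyme B, went with Ifng in all groups, at ratios of 1.82 and 1.84, 1.39 and 1.16, and 1.29 and 1.21.

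Tgfb1 was more often found in islet IGRP- cells with the exhaustion-associated receptors Pdcd1 (36.5% and 35.8% against 21.4% and 21.3%) and Havcr2 (45.3% and 44.7% against 23.9% and 23.3%). In islet IGRP+ cells the ratios for Pdcd1 were 1.06 and 1.05. It was less often found with Tcf7, a transcription factor of progenitor and memory cells, at ratios of 0.762 and 0.759 in islet IGRP- and 0.621 and 0.753 in islet IGRP+, while in the spleen they were 1.00 and 1.04. Ltb was less often found in spleen cells with Gzma (31.8% and 35.5% against 50.8% and 57.9%) and with Gzmb (37.4% and 41.6% against 49.5% and 56.2%). Lta was found 2.61 and 2.16 times as often as predicted with Xcl1, a chemokine gene, in islet IGRP- cells.

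The genes most like each cytokine were taken as the 5 with the highest ratio of detection between cells with and without a UMI of that cytokine, after the other UMIs were thinned to 1000. For Ifng these were Nfkbid, Ccl4, Cish, S100a4 and Jaml in islet IGRP- (1077 and 1387 cells with Ifng) and Nfkbid, Ccl3, Jaml, Cish and Gadd45b in islet IGRP+. Nfkbid, a nuclear I-kappaB protein, was in 6.98% and 6.59% of islet IGRP- cells with Ifng against 1.55% and 1.49% of those without, and in 5.25% and 6.01% against 1.15% and 1.61% in islet IGRP+. For Tnf the genes were Nfkbid, Ifng, Hspa1b, Ccl4 and Plk3 in islet IGRP- and Nfkbid, Ifng, Snhg15, Gadd45b and Rgcc in islet IGRP+. Nfkbid again led, in 10.0% and 8.77% of islet IGRP- cells with Tnf against 1.77% and 1.71%.

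For Tgfb1 the list in islet IGRP- was Cxcr6, Tox2, Tnfrsf9, Klre1 and Rgs16, and Cxcr6, a chemokine receptor of tissue-resident cells, was in 19.1% and 21.6% of cells with Tgfb1 against 6.45% and 7.48%. In islet IGRP+ it was Thap12, Stmn1, Cxcr6, Entpd1 and Commd2, all at ratios under 2. For Ltb the lists were Pycard, S100a4, Sash3, Gadd45b and Pkp3 in islet IGRP- and Ifng, S100a4, Pycard, Tnfrsf4 and Snhg15 in islet IGRP+. In spleen IGRP+, where the rule was applied after its values were seen, the genes most like Ltb included Xcl1, Ccr7, Il7r and Id3. There Il7r, which encodes the IL-7 receptor, was in 26.2% and 28.4% of cells with Ltb against 14.7% and 14.6% of those without.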

How the data were processed

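Single-cell 5′ RNA and T cell receptor libraries were made by the authors with the 10x Genomics platform and aligned to mm10 with Cell Ranger (5.0.1 in the matrix headers). The deposited matrices hold UMI counts per gene and cell, not normalized. Cells with under 5% mitochondrial UMIs and 200 to 3500 genes (islets) or 200 to 2000 (spleen) were kept; no doublet caller was run, and an alternative left out cells carrying a surplus productive β chain. The deposited receptor tables hold UMI counts per chain; a clone shared 1 α and 1 β chain.

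UMIs were summed per library and tested with edgeR 4.0.16 (TMM, filterByExpr, quasi-likelihood F-test, all 6 libraries in 1 fit, Benjamini-Hochberg adjustment over 11277 genes, threshold 0.05). The fit was also run on simulated counts, drawn for each library on its own with no effect of the round. Each group has 2 libraries, whose pools of mice differ; an exact permutation test could not go below p = 0.333. Same-numbered rounds came from the same mice, and libraries of a round deviated together (r = 0.630 to 0.717 over genes), so the paired value is given where it changes a call. CPM values are UMIs of a gene scaled by the library's total UMIs, with no TMM factor. Detection at 1000 UMIs is the hypergeometric expectation per cell, leaving out the 26 to 100 cells per library below that depth. Intervals are exact (Clopper-Pearson for shares, conditional for ratios) and cover counting error only. Co-detection required 5 predicted cells in both libraries of a group.

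The genes and lists were chosen with earlier results of these data known, and counts over lists are descriptions. All 9 cytokines are named; of each other list, the up to 3 called genes with the largest change in each direction and called receptors, and of genes most like a cytokine, the 5 leading ones among genes in at least 5% of its positive cells, for cytokines detected in at least 2% of islet cells. Motifs and pentamers were searched as exact letters. Tested alternatives were the replicate block, DESeq2 1.42.0, its size factors, filters on genes and cells, and leaving out each library. Results for 1 gene are not reported here.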

Additional observations from a re-analysis of the deposited data

How the results depend on the processing

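With the round as a replicate block, which pairs libraries from the same mice, 2 of the 7 cytokines were called within the islets in place of 0, 3442 genes in place of 134, and between tissues 6215 genes in place of 3004. It changed no other call of a cytokine. Within the islets, 574 genes were called by DESeq2, 711 without a filter on low counts (1 cytokine), 24 with only the 4 libraries compared and 84 with only cells holding a productive β chain. Leaving out 1 library gave 0 to 30 genes within the islets, 0 without either islet IGRP+ library, and 892 to 2050 between tissues, lowest without a spleen library. With only clones found in both tissues, an alternative chosen after seeing the data, 1622 genes were called between tissues.

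Within the islets the sign turned without an upper limit on genes per cell for Tgfb1 (-0.0175) and Lta (-0.0155), and with 200 to 2000 genes per cell for Tnf (0.250) and Ltb (0.0324). Leaving out 1 library gave log2 differences within the islets of -0.0454 to 0.202 for Tgfb1, -0.175 to 0.589 for Lta, -0.301 to 0.108 for Tnf and -7.88 to -2.15 for Il2, and between tissues of -5.45 to 0.247 for Il2 and -0.0429 to 0.747 for Lta. None of these passed the test in any setting except Il2 within the islets, with the block and without a filter. The Lta detection ratio of spleen to islet IGRP+ ran from 0.677 to 1.04, and the Ltb ratio of islet IGRP+ to islet IGRP- from 0.969 to 1.03, with 1.03 also without thinning. The Ifng detection ratio of spleen to islet IGRP+ was 2.10 without thinning in place of 3.59. The ratio for Ifng and Tnf in islet IGRP- cells, 3.10 as the mean of both rounds, was 2.44 at 2000 UMIs and 1.98 without thinning. The causes were not tested. Depth limits Il2, Il21, Il10 and Csf2 most, which had at most 94 UMIs in a library.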
